A study of Rattus norvegicus with 12 samples.

Results

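The granins and the enzymes that process prohormones were followed in 2 tissues of adult male rats, the pituitary gland and the hypothalamus. The 10 genes were Chga, Chgb, Scg2 and Scg3 (granins), Pcsk1 and Pcsk2 (prohormone convertases), Scg5 and Pcsk1n (proteins that bind the convertases), Cpe (which trims the cut ends) and Pam (which amidates them). Probes were chosen by their gene symbol alone, brought up to date by gene ID. The rule found 8 probes, 1 each for 8 of the 10 genes, among the 22523 probes of the array. Pcsk1 and Cpe had no named probe and were not analysed here, so the trimming step and 1 of the 2 convertases have no value.

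All rats were male Wistar pups taken on postnatal day 70, born to dams dosed by mouth on gestation day 15. Each of the 4 groups held 3 arrays: pituitary from pups of dams given TCDD, pituitary from pups of dams given vehicle, hypothalamus from pups of TCDD dams, and hypothalamus from pups of vehicle dams. TCDD is a dioxin that binds the aryl hydrocarbon receptor, a ligand-activated transcription factor. The series text gives its dose as 1 µg per kg and the sample protocols as 1 mg per kg, and no value here is linked to either. The titles of 1 TCDD array and 1 vehicle array carry the same letter and number in both tissues, which may mark the same animal, but the labels do not say which arrays share a dam, a litter or an animal, and p-values therefore measure the spread between arrays, which may be technical. The question in the series text is which transcripts stay changed in grown pups and go with their defects in sexual behaviour.

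Peptide hormones and neuropeptides are made as longer precursors and stored in dense-core granules. Granins are acidic proteins that aggregate with these precursors in the trans-Golgi network and help to form the granule. Inside it the convertases cut at pairs of basic residues, carboxypeptidase E removes those residues, and the monooxygenase encoded by Pam turns an exposed glycine into an amide. Pituitary endocrine cells and peptide neurons of the hypothalamus both use this machinery, whereas small synaptic vesicles hold fast transmitters.

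The stretch of 150 bases just before the transcription start is shown for 4 genes (NCBI RefSeq, build GRCr8), because their probes stood apart in the results below: Scg2 had the largest tissue difference on the vehicle arrays, Pcsk2 the lowest unadjusted p for TCDD in the pituitary, Scg3 the smallest tissue difference on the vehicle arrays among the members that passed, and Pcsk1n none that passed. Scg2 lies at chr9:88256867-88257016 on the minus strand, Pcsk2 at chr3:151333788-151333937 on the plus strand, Scg3 at chr8:85322485-85322634 on the minus strand and Pcsk1n at chrX:17255406-17255555 on the minus strand. Each is written 5′ to 3′ on the gene's strand. Capitals mark the cyclic AMP response element in Scg2, GC boxes in Pcsk2 and Pcsk1n, and the core of the cyclic AMP response element in Pcsk2 and Scg3, each on either strand.
Scg2: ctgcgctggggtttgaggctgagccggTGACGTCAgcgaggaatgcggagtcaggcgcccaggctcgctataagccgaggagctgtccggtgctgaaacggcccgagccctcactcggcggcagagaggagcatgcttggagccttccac
Pcsk2: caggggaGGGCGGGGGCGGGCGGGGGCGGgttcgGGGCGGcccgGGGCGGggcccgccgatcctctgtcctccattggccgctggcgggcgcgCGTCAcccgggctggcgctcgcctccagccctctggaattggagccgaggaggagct
Scg3: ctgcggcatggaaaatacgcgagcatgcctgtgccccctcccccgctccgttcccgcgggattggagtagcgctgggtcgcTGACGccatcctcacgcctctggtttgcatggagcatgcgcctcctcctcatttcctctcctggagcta
Pcsk1n: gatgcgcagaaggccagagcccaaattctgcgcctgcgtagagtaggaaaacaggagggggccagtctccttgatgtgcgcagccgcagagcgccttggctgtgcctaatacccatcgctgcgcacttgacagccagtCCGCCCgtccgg

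Over the 250 bases before the start, searched on both strands in the 8 genes with a promoter in the table (all but Chga and Pcsk1), TGACGTCA was found in Scg2 alone, against 1.59% of 33469 rat promoters. The core TGACG, which lies within that element, was found in Scg2, Scg3, Pcsk2, Scg5, Cpe and Pam, 6 of 8, against 18.2% of all promoters. GC boxes, GGGCGG, stood in Chgb, Pcsk2, Scg5, Pcsk1n and Cpe, 5 of 8, against 30.5%. GCGTG, the core of the element bound by the aryl hydrocarbon receptor, stood in Scg3 and Cpe, 2 of 8, against 25.9%. In Scg3 its first base lay 57 bases before the start. The motifs were chosen after the values were seen, and a match is a description of the letters only.

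The pituitary arrays detected 44.1% to 46.0% of all probes and the hypothalamus arrays 48.2% to 50.8%. The 8 member probes were detected on all 12 arrays. Both tissues carried the transcripts of their labels: in the pituitary the 7 measured endocrine markers averaged 12.83 to 12.88 on the log2 scale on the TCDD arrays and 12.83 to 12.98 on the vehicle arrays, against 6.51 to 7.25 on the hypothalamus TCDD arrays and 6.64 to 7.45 on the hypothalamus vehicle arrays. Fshb, Gnrhr and Pou1f1, which define gonadotropes and the Pou1f1 lineage, were detected on no hypothalamus array. Lhb and Prl were detected on 2 of 3 vehicle hypothalamus arrays, and Tshb and Pomc on all 3. Over the hypothalamus arrays Tshb read 8.21 to 12.91 and Pomc 11.11 to 12.41. The 22 hypothalamic peptide precursors averaged 10.02 to 10.13 on hypothalamus TCDD arrays and 10.05 to 10.36 on hypothalamus vehicle arrays. On pituitary TCDD and vehicle arrays they averaged 7.02 to 7.10 and 6.92 to 7.13.

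The granule genes of both tissues were compared first, on log2 intensities of all 12 arrays normalized together. On the TCDD arrays and on the vehicle arrays alike, 7 of the 8 members were higher in the pituitary than in the hypothalamus at an adjusted p under 0.05, and Pcsk1n was the exception. Folds of the 7 ran between 1.85 and 3.74 on the TCDD arrays and between 1.88 and 4.11 on the vehicle arrays. Many transcripts differ between these tissues: 35.8% of the 11910 features tested were higher in the pituitary on the TCDD arrays and 35.7% on the vehicle arrays, while 28.9% and 28.6% were lower. The pituitary and hypothalamus arrays of an arm did not overlap for the same 7 members, all higher in the pituitary, against 39.1% of all features on the TCDD arrays and 37.0% on the vehicle arrays. The members' median log2 difference was 0.92 on the TCDD arrays, where all features had a median of 0.096, and 1.40 on the vehicle arrays, where all features had a median of 0.086. Another scaling, to a common median, moved the median of all features to -0.097 and -0.043 on the TCDD and vehicle arrays, and the share of higher among the called features to 38.7% and 44.5%, against 55.4% and 55.5% in the fit reported here. The same 7 members stayed past the threshold under that scaling. In whole tissue, more cells of a type and more RNA per cell cannot be told apart.

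**Figure D1:**
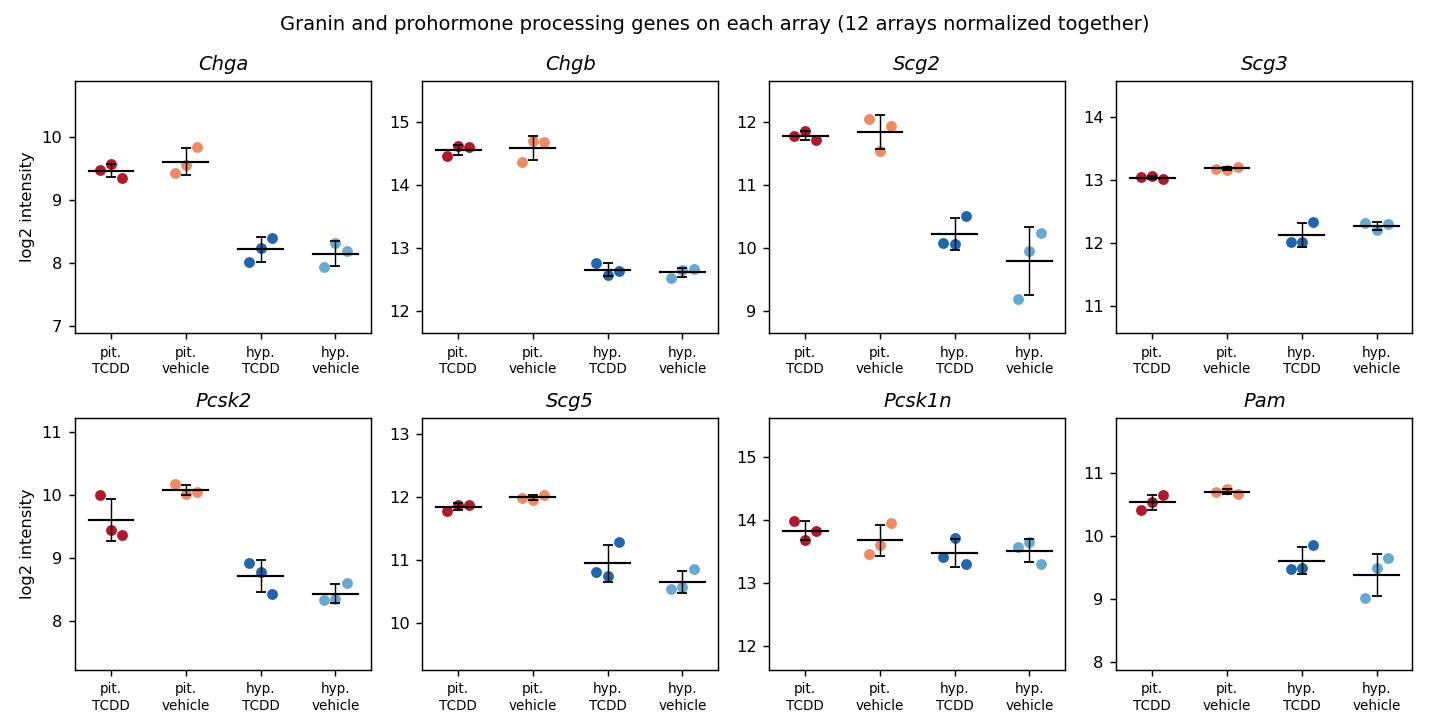
Log2 intensity of the 8 measured genes on each array (vertical axis, the same span of log2 units in every panel) in the 4 groups, pituitary TCDD, pituitary vehicle, hypothalamus TCDD and hypothalamus vehicle. Points are arrays, horizontal lines means and bars SD (n = 3). The pituitary points lie above the hypothalamus points for 7 genes and overlap with them for Pcsk1n.

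Among the granins, Scg2, the precursor of the peptide secretoneurin, had the largest difference on the vehicle arrays. Its log2 intensities were 11.78, 11.86 and 11.73 in TCDD pituitary and 10.09, 10.07 and 10.51 in TCDD hypothalamus. In vehicle animals they were 12.05, 11.54 and 11.94 in pituitary and 9.20, 9.96 and 10.25 in hypothalamus. The tissues did not overlap in either arm, and hypothalamus vehicle array 1 lay clearly below the other hypothalamus arrays. The pituitary was 2.96-fold higher on TCDD arrays (log2 difference 1.56, SE 0.228, limma adjusted p = 5.75e-05) and 4.11-fold higher on vehicle arrays (2.04, SE 0.228, adjusted p = 5.78e-06). Without hypothalamus vehicle array 1 the vehicle difference was 1.74.

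Chgb, chromogranin B, an abundant granule matrix protein, had an SE of 0.109 for its tissue difference, above that of Scg3 (0.0998). TCDD pituitary arrays read 14.47, 14.62 and 14.60, against 12.77, 12.57 and 12.64 in TCDD hypothalamus. Vehicle pituitary arrays read 14.36, 14.71 and 14.68, against 12.53, 12.65 and 12.67 in vehicle hypothalamus. The difference was 1.90 on TCDD arrays (3.74-fold, limma adjusted p = 1.04e-08) and 1.97 on vehicle arrays (3.90-fold, adjusted p = 8.20e-09). In the pituitary its signal stood at 73.6% to 81.5% of the highest signal of the array on TCDD arrays and at 74.1% to 87.4% on vehicle arrays, close to the top of the scale, and whether this compressed its fold was not tested.

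Chga, chromogranin A, the source of several bioactive fragments such as vasostatin, lay at 9.47, 9.57 and 9.36 in TCDD pituitary, against 8.01, 8.25 and 8.40 in TCDD hypothalamus. Vehicle pituitary arrays gave 9.42, 9.56 and 9.84, against 7.94, 8.32 and 8.19 in vehicle hypothalamus. The lowest pituitary array thus stood more than 1 log2 unit above the TCDD hypothalamus median and above every hypothalamus array. The pituitary was 2.38-fold higher on TCDD arrays (limma adjusted p = 6.10e-06) and 2.75-fold higher on vehicle arrays (adjusted p = 1.55e-06).

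Scg3, secretogranin III, which links the granin aggregate to the cholesterol-rich granule membrane, had the smallest difference among the granins on both arms. Its intensities were 13.04, 13.06 and 13.01 in TCDD pituitary, against 12.01, 12.02 and 12.34 in TCDD hypothalamus. They were 13.17, 13.17 and 13.21 in vehicle pituitary, against 12.32, 12.20 and 12.30 in vehicle hypothalamus. The differences, 0.92 on TCDD arrays (1.89-fold, SE 0.0998, limma adjusted p = 4.31e-06) and 0.91 on vehicle arrays (1.88-fold, adjusted p = 4.84e-06), were the most alike of the 8 members between the arms.

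Pcsk2, the convertase that makes peptides such as alpha-MSH and enkephalins, differed by 0.89 on TCDD arrays (1.85-fold, SE 0.168, limma adjusted p = 0.000459) and by 1.65 on vehicle arrays (3.13-fold, adjusted p = 2.45e-06). TCDD pituitary arrays read 9.99, 9.44 and 9.37, against 8.92, 8.78 and 8.43 in TCDD hypothalamus. Vehicle pituitary arrays read 10.17, 10.01 and 10.04, against 8.34, 8.34 and 8.60 in vehicle hypothalamus. No pituitary array overlapped a hypothalamus array of its own arm, but the gap was narrow on the TCDD arrays, where scaling to a common median lowered the difference to 0.57 with an adjusted p of 0.0219.

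Scg5 encodes the small chaperone that the Pcsk2 enzyme needs to mature. It lay at 11.78, 11.88 and 11.88 in TCDD pituitary, against 10.81, 10.75 and 11.28 in TCDD hypothalamus, and the difference was 0.90 (1.86-fold, limma adjusted p = 7.83e-05). In vehicle animals it lay at 11.99, 11.96 and 12.03 in pituitary, against 10.53, 10.58 and 10.85 in hypothalamus, and the difference was 1.34 (2.53-fold, adjusted p = 2.28e-06). The tissues did not overlap in either arm.

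Pcsk1n encodes proSAAS, an inhibitor of the convertase made from Pcsk1. Its intensities were 13.99, 13.68 and 13.84 in TCDD pituitary, against 13.41, 13.72 and 13.31 in TCDD hypothalamus. They were 13.47, 13.61 and 13.96 in vehicle pituitary, against 13.58, 13.66 and 13.31 in vehicle hypothalamus. The tissues overlapped in both arms. The difference was 0.35 on TCDD arrays (95% interval 0.021 to 0.687, limma adjusted p = 0.0590) and 0.17 on vehicle arrays (95% interval -0.166 to 0.50, adjusted p = 0.357), so a pituitary excess of up to 1.61-fold and 1.41-fold lies within these intervals. The TCDD value passed without pituitary TCDD array 2 (0.43, adjusted p = 0.0477) and without hypothalamus TCDD array 2 (0.48, adjusted p = 0.0218), and over the 6 arrays left out in turn its adjusted p ran between 0.0218 and 0.187.

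Pam, the amidating enzyme needed for hormones such as oxytocin, vasopressin and thyrotropin-releasing hormone, lay at 10.41, 10.54 and 10.64 in TCDD pituitary, against 9.48, 9.48 and 9.86 in TCDD hypothalamus. It lay at 10.70, 10.74 and 10.67 in vehicle pituitary, against 9.01, 9.49 and 9.64 in vehicle hypothalamus, where array 1 was again the lowest. The pituitary was 1.90-fold higher on TCDD arrays (limma adjusted p = 0.000180) and 2.50-fold higher on vehicle arrays (adjusted p = 8.82e-06). Without hypothalamus vehicle array 1 the vehicle log2 difference was 1.14 in place of 1.32.

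Ranked by their group means, 6 of the 8 genes had the same order, vehicle pituitary highest, then TCDD pituitary, TCDD hypothalamus and vehicle hypothalamus. In Scg3 the 2 hypothalamus groups changed places, and in Pcsk1n the 2 groups of each tissue did. Neighbours of the same tissue in that order did not differ past the threshold in any of the 8 genes. The step between the tissues passed in all but Pcsk1n.

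**Figure D2:**
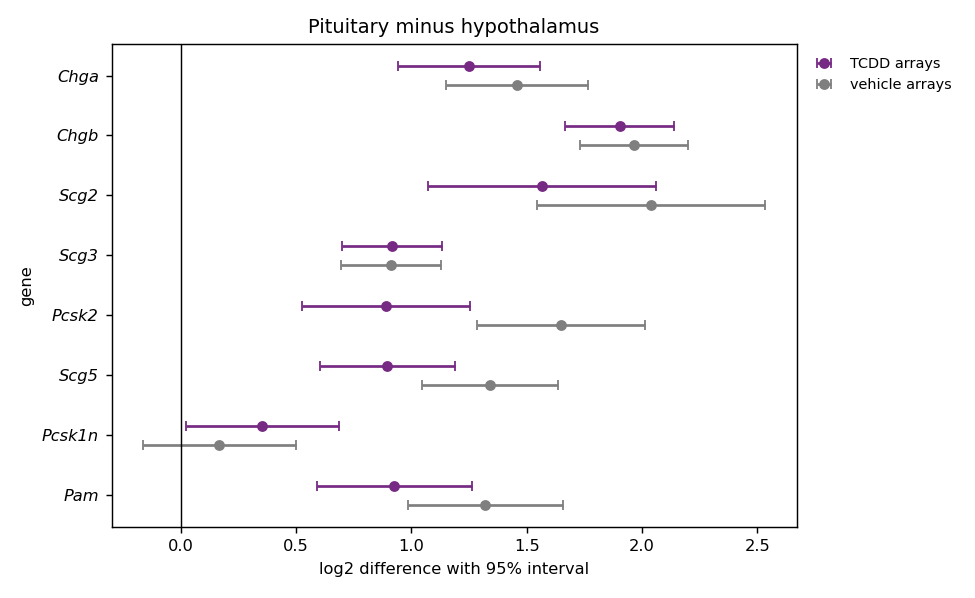
Log2 difference, pituitary minus hypothalamus (horizontal axis), for the 8 genes (vertical axis), with 95% intervals from limma, on the TCDD arrays (purple, above) and the vehicle arrays (grey, below). The intervals of 7 genes lie to the right of 0 in both arms, between 0.527 and 2.53, and Pcsk1n lies nearest to 0.

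Other genes of the secretory pathway, from lists of known function, were set beside the members on the vehicle arrays. Of 15 other dense-core granule genes 11 had a probe and 9 were tested, with 4 higher in the pituitary and 4 lower, where all features had 35.7% higher and 28.6% lower. Rab27a, which docks granules at the plasma membrane, was 7.83-fold higher in the pituitary (log2 difference 2.97, SE 0.130, limma adjusted p = 9.68e-10). Sytl4, its granule effector, was at least 4.18-fold higher, detected on 3 vehicle pituitary arrays and on no vehicle hypothalamus array. Rab26, a small GTPase of secretory and synaptic vesicles, was 12.7-fold lower in the pituitary (adjusted p = 5.04e-08), and Vgf, a granin-like peptide precursor, was 3.14-fold lower (adjusted p = 8.34e-05). Their median was 0.21. Where a group detected a probe on no array, its fold is a bound, the bright group's mean against the lowest detected signal.

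Of 18 other convertases, carboxypeptidases and peptide-modifying enzymes 16 had a probe and 13 were tested, with 5 higher in the pituitary, 3 lower and a median of 0.16, shares near those of all features. Pcsk6, a convertase of the constitutive secretory pathway, was 8.12-fold higher in the pituitary (limma adjusted p = 1.66e-10) and Mbtps1, the site-1 protease of the Golgi, 2.52-fold higher. Qpct, the glutaminyl cyclase that makes the pyroglutamate end of peptides such as gonadotropin-releasing hormone, was at least 5.85-fold lower and detected on no pituitary array. It passed the filter only through the hypothalamus, which set its direction among the 3 lower genes. Cpxm2, a carboxypeptidase-like protein, was 1.81-fold higher.

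The precursors that these granules carry ranged widely. All 6 measured pituitary hormone genes were higher in the pituitary, with a median of 5.34, where 35.7% of all features were higher. Fshb and Cga were detected on no hypothalamus array, so the pituitary alone carried them past the filter and set their direction. The largest were Lhb at 271-fold and Prl at 221-fold, both detected on 2 of 3 vehicle hypothalamus arrays, Fshb at least 58.8-fold and Tshb at 18.7-fold. Prl was 131-fold higher without hypothalamus vehicle array 2 and 376-fold higher without array 3, and Tshb was 10.7-fold higher without array 1. In vehicle pituitary Tshb averaged 14.82, Pomc 14.59 and Prl 14.51, close to the top of the scale. Whether this compressed their folds was not tested. Cga, the alpha subunit shared by several of these hormones, was at least 1.09-fold higher, detected on 2 of 3 pituitary arrays and on no hypothalamus array. Its probe was dim in vehicle pituitary, at 5.20, 5.54 and 5.61. How well it reports the transcript was not tested. Of 22 hypothalamic peptide precursors 18 were lower in the pituitary and 1, Nucb2, which encodes the precursor of nesfatin, was higher (2.55-fold, named after its value was seen), with a median of -2.42. Of all features 28.6% were lower. Of the 22, 9 were detected on no pituitary array, so the hypothalamus alone carried them past the filter and set their direction. The feeding peptide gene Pmch was at least 607-fold lower in the pituitary, Sst, somatostatin, at least 75.9-fold, Hcrt, orexin, at least 56.3-fold and Cck 76.8-fold, with Cck detected on 1 of 3 pituitary arrays and 50.1-fold lower without hypothalamus vehicle array 1. Tac1 at 0.35 and Cartpt at -0.65 (-1.25 without pituitary vehicle array 1) did not pass, nor did Kiss1, detected on no pituitary array. Cga and the genes that did not pass were named after their values were seen.

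Synaptic vesicle and transmitter genes ran opposite to the members. Of 12 tested, 11 were lower in the pituitary in both arms, with medians of -1.32 on TCDD arrays and -1.21 on vehicle arrays. Of all features 28.9% and 28.6% were lower on these arrays. Gad1, Gad2, Stx1a, Syn1 and Syn2 were detected on no pituitary array. These 5 passed the filter only through the hypothalamus, which set their direction. Gad1, which makes GABA, was at least 132-fold lower in vehicle pituitary, Gad2 at least 5.18-fold, the vesicular glutamate transporter Slc17a6 7.82-fold and Syn2, a synapsin, at least 3.62-fold. Sv2b, a vesicle membrane glycoprotein, was the exception, 1.75-fold higher in the pituitary (limma adjusted p = 0.00206, named after its value was seen). On the TCDD arrays the other lists gave 5 higher and 4 lower of the 9 dense-core genes, 6 and 3 of the 13 enzymes, 6 of 6 pituitary hormones higher, and 1 higher and 17 lower of the 22 peptide precursors. Of all features 35.8% were higher and 28.9% lower there.

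**Figure D3:**
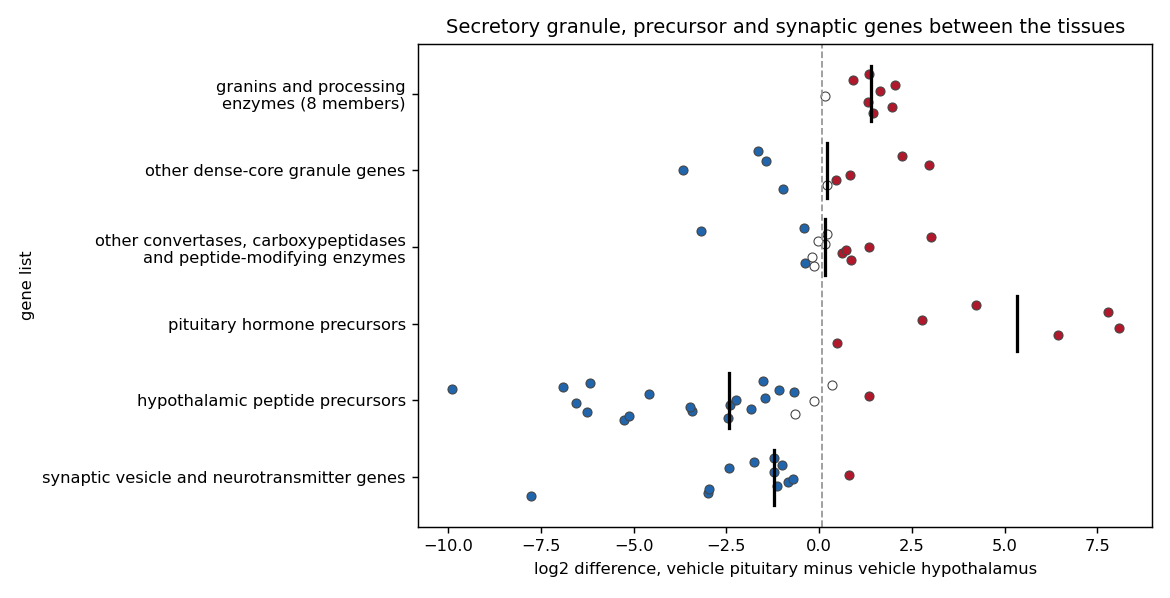
Log2 difference, vehicle pituitary minus vehicle hypothalamus (horizontal axis), of each tested gene by list (vertical axis). Red points passed as higher in the pituitary, blue points as lower, open points did not pass, black bars are list medians and the dashed line is the median of all features, 0.086. For genes detected on no array of 1 group the plotted value is the fitted one, not a bound. The members' median is 1.40, and that of the synaptic genes -1.21.

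TCDD and vehicle arrays were then compared inside each tissue, on intensities of that tissue's 6 arrays normalized on their own. In the pituitary 0 of 10119 features passed an adjusted p under 0.05 (limma, background 0%), while 614 had an unadjusted p under 0.05 (6.07%). None of the 8 members passed. The members' differences ran between -0.49 and 0.17 with a median of -0.15, 7 were below 0, and the median of all features was 0.00052. The TCDD and vehicle arrays did not overlap for Pcsk2, Scg3, Scg5 and Pam, all lower with TCDD, 4 of 8, against 5.70% of all features that lay lower without overlap.

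Pcsk2 had the lowest p of the members. On this scale it read 9.91, 9.34 and 9.27 in TCDD pituitary, against 10.10, 9.93 and 9.96 in vehicle pituitary. TCDD arrays 2 and 3 lay well below the vehicle arrays, and TCDD array 1 just below them. The log2 difference was -0.49 (1.41-fold lower with TCDD, 95% interval -0.872 to -0.111, SE 0.166, limma adjusted p = 0.773), and leaving out 1 array at a time gave -0.69 to -0.37, with no adjusted p under 0.283.

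Its chaperone gene Scg5 read 11.66, 11.77 and 11.77 in TCDD pituitary, against 11.89, 11.86 and 11.93 in vehicle pituitary, a gap of less than 0.1 between the nearest arrays. The difference was -0.16 (95% interval -0.352 to 0.032, limma adjusted p = 0.848). Scg3 read 13.02, 13.03 and 12.99 in TCDD pituitary, against 13.15, 13.15 and 13.20 in vehicle pituitary, tight within each group, and its difference was -0.15 (95% interval -0.338 to 0.030, adjusted p = 0.848). Pam read 10.34, 10.46 and 10.56 in TCDD pituitary, against 10.62, 10.65 and 10.59 in vehicle pituitary, a difference of -0.17 (95% interval -0.378 to 0.045, adjusted p = 0.854). The intervals of Scg5, Scg3 and Pam thus reach from about no change to a level 1.28-fold, 1.26-fold and 1.30-fold lower.

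The other 4 members overlapped between TCDD and vehicle pituitary. Chga differed by -0.14 (95% interval -0.434 to 0.147), Scg2 by -0.06 (-0.378 to 0.261) and Chgb by -0.01 (-0.254 to 0.230). Pcsk1n was the only one above 0, at 0.17 (-0.168 to 0.499). For Chgb a change of more than 1.19-fold down or 1.17-fold up lies outside the interval. Its pituitary signal lay close to the top of the scale, and whether this compressed the TCDD difference was not tested.

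Some lists of markers of other cells had means that differed between TCDD and vehicle arrays in the pituitary. The 6 meningeal and fibroblast markers averaged 10.41 to 10.62 log2 units on the TCDD arrays and 10.75 to 10.88 on the vehicle arrays, with Ptgds at -1.03 (limma adjusted p = 0.491) and Igf2 at -0.64 (adjusted p = 0.696). The 5 astrocyte and tanycyte markers averaged 7.91 to 8.04 on TCDD arrays and 7.80 to 7.86 on vehicle arrays, and the 7 neuron markers 8.63 to 8.66 and 8.48 to 8.58. Slc1a3 differed by 0.67 (limma adjusted p = 0.773) and Nefl by 0.77 (adjusted p = 0.548). Within these lists the signs were mixed. Of 6 meningeal and fibroblast markers 2 were above 0 as TCDD minus vehicle and 4 below, with a median of -0.26. Of 4 tested astrocyte and tanycyte markers 3 were above 0 and 1 below, with a median of 0.027. Of 6 tested neuron markers 3 were above 0 and 3 below, with a median of 0.053. None passed adjustment, Aqp4 was detected on no pituitary array, and the 7 endocrine markers had no unadjusted p under 0.05. The part of these markers in the members' values was not tested.

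In the hypothalamus 1 of 11095 features passed (0.00901%), a probe with no gene name here, and 594 had an unadjusted p under 0.05 (5.35%). None of the 8 members passed, none had an unadjusted p under 0.05, and all 8 overlapped between TCDD and vehicle, where 10.9% of all features did not. Their differences ran between -0.14 and 0.41, with 6 above 0 and a median of 0.15, against 0.0027 for all features.

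Scg2 had the largest hypothalamic difference. It read 10.17, 10.15 and 10.59 in TCDD hypothalamus, against 9.29, 10.04 and 10.32 in vehicle hypothalamus. The log2 difference was 0.41 (95% interval -0.178 to 1.01, limma adjusted p = 0.883), and without vehicle array 1 it was 0.12. Scg5 differed by 0.30 (-0.091 to 0.696), Pcsk2 by 0.28 (-0.070 to 0.628) and Pam by 0.22 (-0.203 to 0.650), and Pam was at 0.04 without vehicle array 1. Chga and Chgb lay within 0.08 of no difference, Pcsk1n at -0.03 and Scg3 at -0.14.

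**Figure D4:**
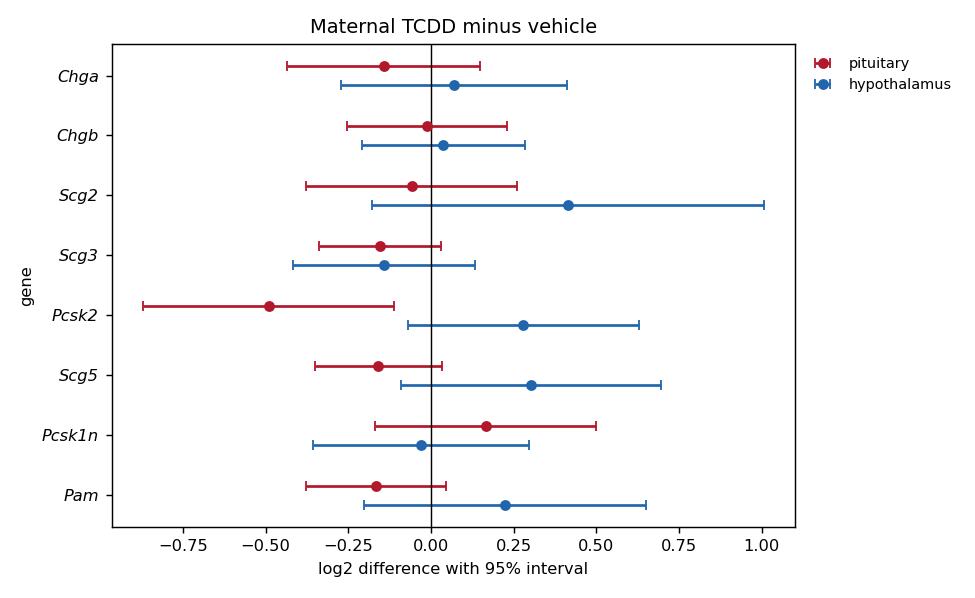
Log2 difference, TCDD minus vehicle (horizontal axis), for the 8 genes (vertical axis), with 95% intervals from limma, in the pituitary (red, above) and hypothalamus (blue, below). The interval of Pcsk2 in the pituitary, -0.872 to -0.111, is the only one of the 16 that does not hold 0, and its adjusted p was 0.773.

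Vehicle array 1 of the hypothalamus stood apart in some peptide and marker genes also. On the scale of all 12 arrays Agrp, which drives feeding, read 8.30, 8.71 and 8.95 on the TCDD arrays and 7.45, 8.58 and 8.81 on the vehicle arrays. Ghrh, growth hormone-releasing hormone, read 9.02, 9.16 and 9.40 on the TCDD arrays and 7.79, 9.19 and 8.90 on the vehicle arrays. Adcyap1 and Pomc were lowest on the same array, at 9.65 and 11.11. These 4 genes were chosen after their values were seen, and the mean of all 22 peptide precursors on that array, 10.05, lay within the range of the other hypothalamus arrays, 10.02 to 10.36. Over the 6 hypothalamus arrays the deviations of Scg2 and Pam from their group means had a Pearson r of 0.99, as a description of probes read on the same arrays and RNA. In the pituitary the same pair had an r of -0.29.

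Other genes and marker lists lay high or low on the same array. Gnrh1 at 7.48, Tac1 at 11.30 and Cck at 12.78 were higher there than on the other 5 hypothalamus arrays. The 5 oligodendrocyte markers averaged 10.43 to 10.76 on the TCDD arrays and 11.05 on vehicle array 1, against 10.54 and 10.29 on the other vehicle arrays. The 7 neuron markers averaged 9.87 to 9.97 on the TCDD arrays and 10.12 on vehicle array 1, against 9.68 and 9.83 on the other vehicle arrays. The 7 endocrine markers averaged 6.64 on vehicle array 1, below the other vehicle arrays (7.25 and 7.45) and above TCDD array 2 (6.51), and Tshb read 8.99 there, against 12.91 on TCDD array 3. The part of these markers in the values of Scg2 and Pam was not tested.

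**Figure D5:**
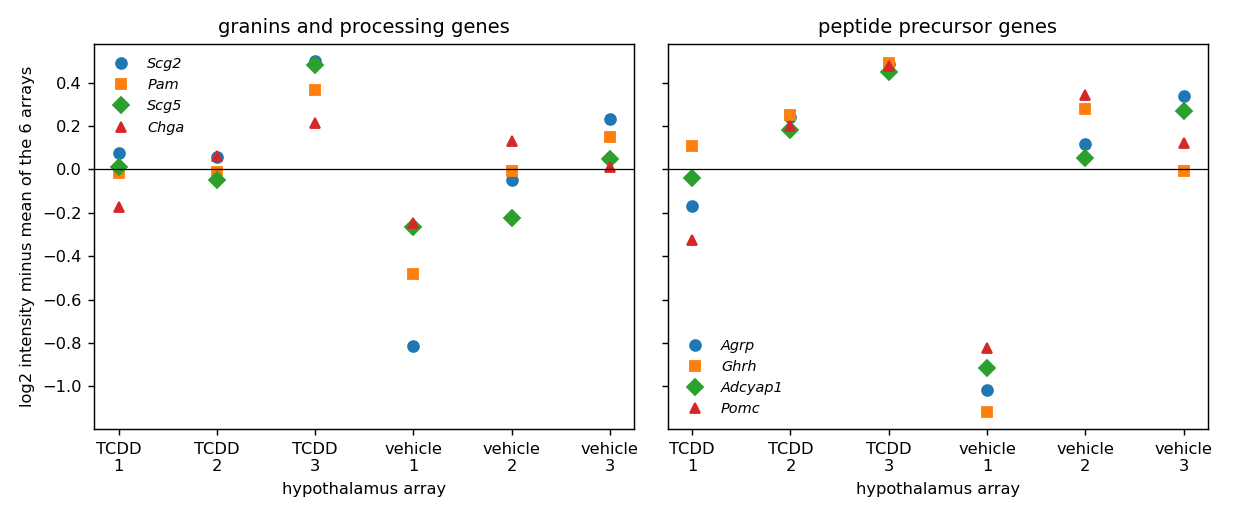
Log2 intensity of each gene minus its mean over the 6 hypothalamus arrays (vertical axis) on the 3 TCDD and 3 vehicle arrays (horizontal axis), for 4 members (left) and 4 peptide precursor genes chosen after their values were seen (right). Vehicle array 1 is the lowest for all 8 genes, and TCDD array 3 the highest. Of the members not shown, Chgb and Pcsk2 were also lowest on vehicle array 1. Scg3 (12.32) and Pcsk1n (13.58) were not.

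Thalamic markers were high on 2 of the hypothalamus TCDD arrays. The 4 measured averaged 8.62, 8.29 and 7.38 on the TCDD arrays and 7.33, 6.96 and 7.33 on the vehicle arrays, all 4 were above 0 as TCDD minus vehicle with a median of 0.86, and none passed adjustment. Prkcd, a marker of thalamic relay neurons, read 10.53, 9.90 and 7.70 on the TCDD arrays, against 8.60, 6.96 and 7.93 on the vehicle arrays. On TCDD arrays 1 and 2, where these markers were high, Pcsk2 was 8.92 and 8.78, against 8.43 on TCDD array 3. On the vehicle arrays Pcsk2 read 8.34, 8.34 and 8.60, an order that did not follow that of the marker means. The 6 meningeal and fibroblast markers averaged 10.66, 9.63 and 10.37 on the TCDD arrays and 10.32, 10.52 and 10.80 on the vehicle arrays, and TCDD array 2 was the lowest. All 6 were below 0 as TCDD minus vehicle with a median of -0.30, Col1a2 lay at -0.70, and none passed adjustment. The part of both lists in the members' values was not tested.

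The TCDD effects of the 2 tissues were set against each other in the fit of all 12 arrays. No feature of 11910 passed (limma, 0%), and 738 had an unadjusted p under 0.05 (6.20%). Pcsk2 had a difference of the TCDD effect, pituitary minus hypothalamus, of -0.76 (95% interval -1.27 to -0.242, adjusted p = 0.717) and Scg5 of -0.44 (-0.860 to -0.029, adjusted p = 0.783), 2 of 8 members at an unadjusted p under 0.05. The other 6 lay between -0.47 for Scg2 and 0.19 for Pcsk1n, with intervals that hold 0. Leaving out each array in turn kept Pcsk2 between -0.95 and -0.64 and Scg5 between -0.54 and -0.28, with no adjusted p under 0.370 for either.

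None of the other secretory genes passed adjustment for TCDD in either tissue. Hid1, needed for granule maturation, had the lowest p of the dense-core genes in both, with 0.38 in the pituitary (limma adjusted p = 0.605) and 0.43 in the hypothalamus (adjusted p = 0.883). It read 9.70, 9.74 and 9.66 in TCDD pituitary, against 9.35, 9.44 and 9.19 in vehicle pituitary, on the scale of all 12 arrays. Hypothalamus arrays read 9.49, 9.17 and 9.30 with TCDD, against 9.01, 8.87 and 8.77 with vehicle. On that scale the Hid1 groups overlapped in neither tissue. In the hypothalamus, normalized on its own, 10.9% of all features did not overlap. Hid1 was named for its low p, and that choice favours such a gap. The next lowest dense-core genes were Eipr1 at 0.22 in the pituitary (limma adjusted p = 0.848) and Rab26 at -0.42 in the hypothalamus (adjusted p = 0.883).

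Among the other enzymes Cpxm2 had a hypothalamic difference of -1.14 (limma adjusted p = 0.883) and Ide, an insulin and peptide degrading enzyme, -0.24. In the pituitary Pcsk7, a convertase of the constitutive pathway, differed by -0.38 (limma adjusted p = 0.773) but was detected on 1 TCDD array only, and Cpd by -0.31 (adjusted p = 0.847). Among the cargo genes Gnrh1, gonadotropin-releasing hormone, differed by -1.17 in the hypothalamus (limma adjusted p = 0.883), with 6.56, 5.83 and 6.04 on TCDD arrays, against 7.48, 7.34 and 7.02 on vehicle arrays. Tac1, the substance P precursor, differed by -0.44 there (limma adjusted p = 0.883). In the pituitary Avp, vasopressin, differed by 0.58 (limma adjusted p = 0.812) and Npy by -0.59 (adjusted p = 0.853).

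Pituitary hormone genes lay close to no change in the pituitary, with Tshb at -0.10 (limma adjusted p = 0.928) and Fshb at 0.12 (adjusted p = 0.943) the lowest in p. On the scale of all 12 arrays Tshb read 14.52 to 14.86 in the pituitary, Pomc 14.47 to 14.68 and Prl 14.20 to 14.70. These levels were close to the top of the scale, and whether this compressed their TCDD differences was not tested. In the hypothalamus the lowest in p were Pomc at 0.23 (limma adjusted p = 0.926) and Prl at -0.67 (adjusted p = 0.928), with Prl detected on 1 TCDD array. Of the synaptic genes Syn2 differed by -0.39 and Syp, synaptophysin, by 0.29 in the hypothalamus (limma adjusted p = 0.883 for both), and Syt1 by -0.16 and Sv2b by -0.19 (adjusted p = 0.899 for both) in the pituitary.

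Likeness to each member was measured as Pearson's r of log2 intensity over the 12 arrays among 8620 other named genes. The 12 arrays fall into 2 tissues, so a high r is a description. It rests mainly on the tissue difference for all members but Pcsk1n, whose tissues overlapped. The 2 most like were Amhr2 and Exosc3 for Chga (both 0.99), Agpat2 and Lbp for Chgb (both 1.00), Nr0b1 and Tceal9 for Scg2 (both 0.99), and Lig4 and Cbfb for Scg3 (both 0.99). For Pcsk2 they were Ubxn10 and Dcaf5 (both 0.97), for Scg5 Capn7 and Ifi44 (both 0.99), for Pam Tceal9 and Efcab2 (both 0.99), and for Pcsk1n Ap1m1 at 0.94 and Tal1 at 0.91. Of the 8620 genes, 12.9% had an r over 0.95 with Chgb, 8.83% with Chga, 7.89% with Scg3, 5.16% with Scg5, 5.12% with Scg2, 4.59% with Pam, 0.336% with Pcsk2 and none with Pcsk1n. With the group means removed, r over the 16 pairs ran between 0.66 for Chgb with Agpat2 and 0.97 for Pam with Efcab2. The pairs were chosen for their high r on these same arrays. That choice favours a high r here too, and no conclusion is drawn from it.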

How the data were processed

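The deposited table of signals held, per the file headers, an intensity and a detection p-value for each probe and array (Illumina RatRef-12 BeadChip, biotin-labelled cRNA from 250 ng of total RNA per the labels' protocols), not normalized between arrays. No source used here names the scanner software or an earlier background step. A second deposited table held intensity values the authors normalized for each tissue on its own, per the series text, without naming the method. It ranked the probes of each array as the signals did (Spearman rho 1) and served only as an alternative.

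Gene names came from the platform annotation: 13793 had 1 gene symbol, 0 several and 8730 none, and 13752 were found by gene ID in a RefSeq table of GRCr8. Signals were background-corrected from the detection p-values (nec of limma 3.58.1, offset 16, R 4.3.3), then quantile normalized and turned into log2 values, over the 6 arrays of a tissue for TCDD against vehicle and over all 12 for the tissue differences and the difference of effects. A feature was tested if detected (p under 0.05) on at least 3 arrays. A gene was its probe of highest mean, and unnamed probes stayed single. Tests were two-sided moderated tests of limma (lmFit, eBayes), with Benjamini-Hochberg adjustment over all features tested. The test was tried on simulated data. Because of the offset, folds of dim probes are understated, and 3 arrays per group limit the precision.

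The members and lists were chosen with earlier results of these data known. The text names all members, of each other list the up to 4 genes of largest tissue difference that passed on vehicle arrays and the up to 2 of lowest p for TCDD, and the 2 genes most like each member. Marker genes named besides are of lists used to check the tissues. The red blood cell, oligodendrocyte, choroid plexus and microglia markers were also measured, and of these Mbp alone, an oligodendrocyte gene, had an unadjusted p under 0.05 for TCDD, in the pituitary (0.36, limma adjusted p = 0.817). Alternatives were another scaling, background step, filter, variance model, the authors' table, all 12 arrays together, single probes, blocks by replicate or title number, and each array left out.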

Additional observations from a re-analysis of the deposited data

How the results depend on the processing

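The 7 members higher in the pituitary, on TCDD and on vehicle arrays, passed under each alternative run. The Pcsk1n difference on TCDD arrays passed without background correction (0.35, adjusted p = 0.0456) and with a trended, robust variance (adjusted p = 0.0419). No member passed for TCDD in either tissue or for the difference of effects under any alternative. The count of all features past the threshold in the pituitary, 0 as reported, was 2 on the authors' table, 3 with the trended, robust variance, 2 without background correction, 1 with the stricter filter, and 0 to 3 with 1 array left out. In the hypothalamus, 1 as reported, it was 0 with all 12 arrays together, 2 on the authors' table, 3 with the trended, robust variance, 2 without background correction, 2 without a filter, 2 with the stricter filter, and 1 to 3 with 1 array left out. For the difference of effects, 0 as reported, it was 0 to 1. The cause was not tested. The sign of 6 small member values turned: Scg3 in the difference of effects (0.01 as reported, -0.0521 with median scaling, -0.0508 to 0.116 with 1 array left out), and with 1 array left out Chgb (-0.110 to 0.0388) and Scg2 (-0.216 to 0.0473) in the pituitary, and Chga (-0.0375 to 0.176), Chgb (-0.0143 to 0.0815) and Pcsk1n (-0.145 to 0.0469) in the hypothalamus.

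The fits reported here did not pair arrays by the replicate number of the labels. In the pituitary, deviations of same-numbered TCDD and vehicle arrays correlated at 0.0715, 0.185 and 0.0699, and each TCDD array correlated best with its own number. In the hypothalamus they correlated at 0.112, 0.0956 and 0.259. There TCDD arrays 1 and 3 correlated best with their own number and TCDD array 2 did not. What the number stands for was not tested. With the replicate block 0 features passed in the pituitary and 1 in the hypothalamus, as without it, and Pcsk1n on TCDD arrays had an adjusted p of 0.0390. Features with an unadjusted p under 0.05 went from 614 to 628 in the pituitary and from 594 to 849 in the hypothalamus. For the difference of effects they went from 738 to 969. Across features, the deviations of the arrays of both tissues whose titles share a letter and number correlated at 0.104 for the TCDD pair and -0.206 for the vehicle pair. All 8 members were detected on every array, but the offset understates folds most for the dimmer ones, such as Chga and Pcsk2 in the hypothalamus.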
